A study of Mus musculus with 3 samples.

Results

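The 8 genes described here encode transcription factors of the adipogenic programme: Pparg, Cebpa, Cebpb, Cebpd, Zfp423, Ebf1, Ebf2 and Klf15. They were taken by symbol, as 8 of the 32285 genes of each count table. Their mRNA was followed in single-cell RNA sequencing of the stromal vascular fraction of inguinal white fat, from cells with many Pi16 transcripts (progenitors) through cells with Icam1 transcripts (preadipocytes) to cells with Adipoq transcripts (early adipocytes). The samples were 1 library from Wild-type mice, 1 from Mgp-KO mice, in which Mgp is deleted in the whole body, and 1 from Pd-KO mice, whose floxed Mgp alleles are cut by a Pdgfra-cre transgene, so that the deletion starts in cells that express Pdgfra and is kept by their descendants. All mice were 4 weeks old, and each library pooled cells of several mice of both sexes. Lipid-filled adipocytes had been lost in centrifugation and Cd45+ immune cells had been sorted out. Mgp encodes matrix Gla protein, a secreted inhibitor of bone morphogenetic proteins. The Pd-KO library was compared with the same Wild-type library, since floxed mice without the transgene were not analysed here, so an effect of the floxed alleles or the transgene alone cannot be told apart from that of the deletion. Because both knockout comparisons share the Wild-type library, a departure of that library would move both.

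Fat cells form when a mesenchymal progenitor commits to the lineage and then switches on a cascade of transcription factors. Cebpb and Cebpd are induced early by hormonal signals and help to start Pparg and Cebpa, which then maintain each other and drive the genes of lipid storage, with Klf15 acting alongside them in the later phase. Zfp423 and the early B-cell factors Ebf1 and Ebf2 act upstream, in committed precursors, where they favour Pparg expression, and Ebf2 is best known for brown and beige precursors.

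Pparg, Cebpa and Klf15 were the members that were higher at each step along the stages in most libraries, and the letters just upstream of their RefSeq start sites on GRCm38.p6 are shown for that reason. For Pparg the most downstream of its 3 listed starts is given, which makes the fat-cell isoform Pparg2. Each line holds 250 bases read 5′ to 3′ and ending at the base before the start, and capitals mark matches to a C/EBP motif (TTGCNNAA on either strand) or the core of a nuclear receptor site (AGGTCA on either strand), to which PPAR dimers bind when it is repeated. The motifs do not overlap.
Pparg, start 3 of 3, + strand of chr6:115421816-115422065: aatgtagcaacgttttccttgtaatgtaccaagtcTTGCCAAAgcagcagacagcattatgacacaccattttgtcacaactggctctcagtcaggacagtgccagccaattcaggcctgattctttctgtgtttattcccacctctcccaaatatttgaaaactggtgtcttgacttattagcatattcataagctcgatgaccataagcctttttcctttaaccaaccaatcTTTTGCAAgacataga
Cebpa, + strand of chr7:35119043-35119292: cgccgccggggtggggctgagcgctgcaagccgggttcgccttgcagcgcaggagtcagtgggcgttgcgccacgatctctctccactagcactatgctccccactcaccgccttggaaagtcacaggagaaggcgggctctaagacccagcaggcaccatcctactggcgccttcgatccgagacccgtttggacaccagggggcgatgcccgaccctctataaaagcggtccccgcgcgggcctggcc
Klf15, + strand of chr6:90462326-90462575: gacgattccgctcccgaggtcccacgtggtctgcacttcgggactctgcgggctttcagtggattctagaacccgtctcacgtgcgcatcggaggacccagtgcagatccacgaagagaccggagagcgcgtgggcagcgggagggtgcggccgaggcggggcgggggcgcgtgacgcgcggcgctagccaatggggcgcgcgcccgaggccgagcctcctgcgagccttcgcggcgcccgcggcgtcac
The Pparg window held 2 C/EBP matches, whose first bases lay 215 and 16 bases before the start, while the Cebpa and Klf15 windows and the 50 bases after each of the 3 starts held no match to either motif. Of 32851 mouse promoter windows of 300 bases, 10.8% held the C/EBP letters and 16.3% the nuclear receptor core. Each of the other Pparg starts had 1 nuclear receptor core, 28 and 9 bases before it. A match is a description of letters, and no binding was measured. Cebpd and Ebf2 had no entry.

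Cells were barcodes with at least 2000 unique molecular identifiers (UMIs, each counting 1 captured transcript) and at most 10% of them from mitochondrial genes. This left 10511 cells from Wild-type, 12575 from Mgp-KO and 8819 from Pd-KO mice, with medians of 12802, 6445 and 8269 UMIs per cell. Pi16 cells carried at least 5 Pi16 UMIs, Icam1 cells at least 2 Icam1 UMIs and 1 Pdgfra UMI, and Adipoq cells at least 5 Adipoq UMIs, and the groups were exclusive, since Adipoq cells were taken first and cells that passed both the Pi16 and Icam1 limits were set apart. Pi16 cells numbered 2249 in the Wild-type, 4445 in the Mgp-KO and 4102 in the Pd-KO library, Icam1 cells numbered 2070, 1417 and 267, and Adipoq cells 137, 26 and 22, in the same order. The Adipoq groups of both knockouts therefore rest on few cells. Levels are given in CPM, the UMIs of a gene summed over the cells of a group per 1000000 UMIs of all genes there, each with its exact 95% Poisson interval in parentheses. These intervals allow for counting error alone. Each genotype had 1 library, so no difference has a replicate check and none was tested. Where values are listed for the 3 libraries without names, they follow the order Wild-type, Mgp-KO, Pd-KO. A member was counted as higher or lower in a comparison where its log2 ratio of CPM reached 1 in size, a 2-fold difference, with at least 20 UMIs in the 2 groups together.

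The targeted gene went with the labels. Mgp stood at 451 CPM (448 to 455) over all Wild-type cells, 1.75 (1.49 to 2.05) over Mgp-KO cells and 18.1 (17.1 to 19.1) over Pd-KO cells. Markers that did not define the groups stood as follows: Dpp4, a marker of progenitors, at 309 to 684 CPM in Pi16 cells, the lipid chaperone Fabp4 at 2053 to 4842 in Icam1 cells, and the lipid-droplet gene Plin1 at 380 to 515 and Car3 at 9994 to 12410 in Adipoq cells. The 5 preadipocyte markers, Icam1, Bmper, Cd36, Apoe and Fabp4, summed to 16650, 8186 and 5565 CPM in Icam1 cells. They were higher in Adipoq cells, at 32660, 35650 and 21270 CPM, and in endothelial cells, at 28960, 43840 and 38000. Their sum thus did not single out Icam1 cells. Only 42.3% to 59.1% of Adipoq cells still had a Pdgfra UMI. Cells with at least 2 UMIs of endothelial, mural, epithelial, glial or leukocyte markers made up 20.8%, 27.1% and 34.3% of Wild-type Pi16, Icam1 and Adipoq cells, against 2.00%, 6.28% and 11.5% of Mgp-KO and 3.41%, 11.2% and 4.55% of Pd-KO cells. Pd-KO Adipoq cells held the mural gene Rgs5 at 143 CPM and Pi16 at 308, against 4.56 and 95.7 in Wild-type and 0 and 10.4 in Mgp-KO Adipoq cells. Doublets were not called and such cells were kept. By Xist and Y-linked transcripts 35.1%, 60.6% and 32.5% of cells were called female and 35.1%, 14.7% and 39.5% male. The rest had no call. Libraries shared 35 to 40 cell barcodes in pairs, 0.278% to 0.420% of a library.

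**Figure D1:**
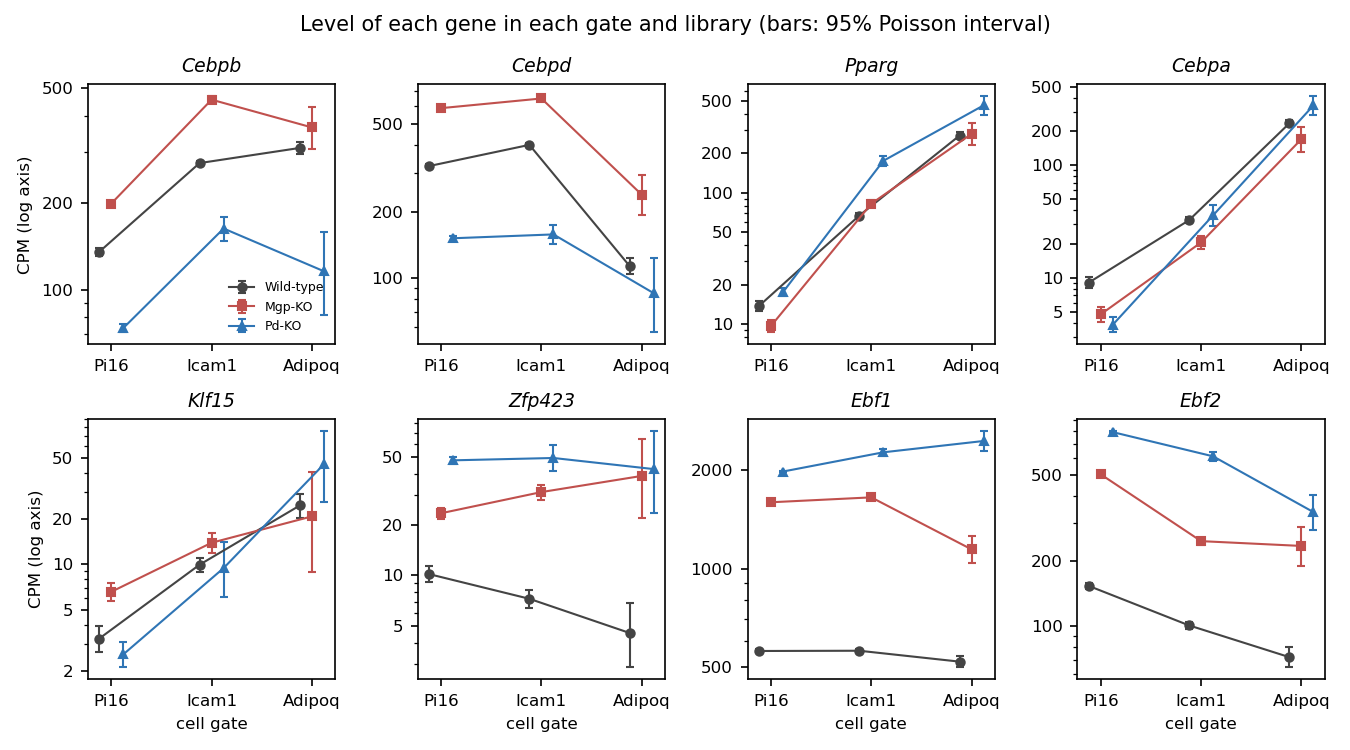
Level of each of the 8 transcription factor genes, in CPM on a log axis, in Pi16, Icam1 and Adipoq cells of the 3 libraries, with exact 95% Poisson intervals as bars. Pparg and Cebpa climb at both steps in every library, while Ebf1 and Ebf2 are ordered by library at every stage, Wild-type lowest and Pd-KO highest.

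Cebpb and Cebpd, the early inducers, stood higher in progenitors than Pparg, Cebpa and Klf15 did in each library. Wild-type Cebpb stood at 135 CPM (131 to 139) in Pi16 cells, 275 (269 to 280) in Icam1 cells and 310 (295 to 326) in Adipoq cells. The Mgp-KO levels were 199 (194 to 204), 456 (444 to 468) and 365 (307 to 431). Pd-KO cells held 73.5 (71.0 to 76.1), 163 (148 to 179) and 116 (81.9 to 159). Within each library the Icam1 level of Cebpb was the Pi16 level at least doubled, and at every stage the Mgp-KO library was highest and the Pd-KO library lowest. The log2 ratio of Icam1 over Pi16 cells was 1.02 (0.97 to 1.07) in the Wild-type, 1.20 (1.15 to 1.25) in the Mgp-KO and 1.15 (1.00 to 1.29) in the Pd-KO library. The Wild-type ratio was 0.94 with median-ratio scaling and 0.91 in cells low in Fos, and the Pd-KO ratio 0.89 with median-ratio scaling, each short of 2-fold. From Icam1 to Adipoq cells the log2 ratio was 0.17 (0.10 to 0.25) in the Wild-type library and lay below 0 in both knockouts, at -0.32 (-0.57 to -0.08) and -0.49 (-1.01 to -0.01).

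Cebpd followed another course. It stood at 321 CPM (315 to 327) in Wild-type Pi16 cells, 401 (394 to 407) in Icam1 cells and 113 (104 to 123) in Adipoq cells. Mgp-KO cells held 588 (580 to 596), 650 (635 to 665) and 238 (192 to 292). The Pd-KO values were 151 (148 to 155), 157 (143 to 173) and 85.3 (56.7 to 123). Progenitors and preadipocytes thus differed little in Cebpd in any library, and Adipoq cells were the lowest of the 3 stages in all of them. The log2 ratio of Icam1 over Pi16 cells was 0.32, 0.15 and 0.06, short of 2-fold in each. From Icam1 to Adipoq cells it was -1.82 (-1.95 to -1.70), -1.45 (-1.76 to -1.15) and -0.89 (-1.49 to -0.33). Without the 5% of cells with most UMIs the Wild-type drop was -0.79 and the Mgp-KO drop -0.94, both short of 2-fold.

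Pparg, the nuclear receptor without which no fat cell forms, was low in progenitors. In Wild-type cells it stood at 13.7 CPM (12.5 to 15) in Pi16 cells, 67.1 (64.4 to 69.9) in Icam1 cells and 274 (259 to 289) in Adipoq cells. The Mgp-KO levels were 9.65 (8.62 to 10.8), 82.8 (77.6 to 88.2) and 282 (232 to 340). Pd-KO cells held 17.5 (16.3 to 18.8), 176 (160 to 192) and 466 (395 to 546). Pparg was higher by more than 2-fold at both steps in all 3 libraries. From Pi16 to Icam1 cells its log2 ratio was 2.29 (2.15 to 2.44) in the Wild-type library, 3.10 (2.92 to 3.29) in the Mgp-KO and 3.33 (3.16 to 3.50) in the Pd-KO library, and from Icam1 to Adipoq cells it was 2.03 (1.93 to 2.13), 1.77 (1.47 to 2.06) and 1.41 (1.13 to 1.67).

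Cebpa, the C/EBP factor that sustains the mature fat cell, took the same steps. Its Wild-type levels were 9.06 CPM (8.06 to 10.2) in Pi16 cells, 32.5 (30.7 to 34.5) in Icam1 cells and 236 (223 to 251) in Adipoq cells. In the Mgp-KO library they were 4.74 (4.02 to 5.54), 20.6 (18.1 to 23.4) and 171 (132 to 217). In the Pd-KO library they were 3.83 (3.27 to 4.46), 36.0 (29.1 to 44.0) and 341 (281 to 410). Both knockouts were below Wild-type in progenitors, the Mgp-KO library was lowest at the later stages, and the Pd-KO library was highest among Adipoq cells. The step into Icam1 cells had log2 ratios of 1.84 (1.66 to 2.03), 2.12 (1.83 to 2.42) and 3.23 (2.85 to 3.60), and the step into Adipoq cells 2.86 (2.74 to 2.98), 3.05 (2.63 to 3.45) and 3.25 (2.84 to 3.66).

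Klf15, a Krüppel-like factor of the later phase, was sparse. In the Wild-type library 118 Klf15 UMIs in Adipoq cells gave 24.5 CPM (20.2 to 29.3), against 9.96 (8.94 to 11.1) in Icam1 and 3.25 (2.67 to 3.93) in Pi16 cells. In the Mgp-KO library 8 UMIs gave 20.7 CPM (8.94 to 40.8) in Adipoq cells, above 13.9 (11.8 to 16.2) in Icam1 and 6.61 (5.76 to 7.54) in Pi16 cells. In the Pd-KO library 15 UMIs gave 45.7 (25.6 to 75.3), above 9.47 (6.13 to 14.0) and 2.56 (2.11 to 3.08). The order of the stages was the same in the 3 libraries, although the Mgp-KO Icam1 and Adipoq intervals overlapped. The log2 ratio of Icam1 over Pi16 cells was 1.61 (1.30 to 1.94), 1.07 (0.77 to 1.37) and 1.89 (1.20 to 2.52), and that of Adipoq over Icam1 cells 1.30 (0.98 to 1.60), 0.58 (-0.66 to 1.59) and 2.27 (1.24 to 3.25).

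Zfp423, Ebf1 and Ebf2, the factors of committed precursors, did not reach a 2-fold increase at any step. Zfp423 was lower in later stages of the Wild-type library, at 10.2 CPM (9.12 to 11.3), 7.27 (6.41 to 8.21) and 4.56 (2.86 to 6.90) in Pi16, Icam1 and Adipoq cells. Its Mgp-KO levels were 23.4 (21.7 to 25.1), 31.2 (28.0 to 34.5) and 38.8 (21.7 to 64.1). Its Pd-KO levels were 48.0 (46.0 to 50.1), 49.6 (41.5 to 58.9) and 42.6 (23.3 to 71.5). The Pd-KO stages overlapped in their intervals, and only 22, 15 and 14 Zfp423 UMIs were behind the 3 Adipoq values. The log2 ratio of Icam1 over Pi16 cells was -0.49 (-0.73 to -0.25) in the Wild-type, 0.42 (0.23 to 0.60) in the Mgp-KO and 0.05 (-0.22 to 0.30) in the Pd-KO library.

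Ebf1 was nearly level along the stages of the Wild-type library, at 559 CPM (551 to 568), 561 (553 to 568) and 519 (499 to 540). The Mgp-KO library held 1594 (1581 to 1608) in Pi16, 1650 (1627 to 1674) in Icam1 and 1144 (1040 to 1256) in Adipoq cells. The Pd-KO library held 1979 (1966 to 1993), 2266 (2209 to 2324) and 2454 (2288 to 2630). No step of Ebf1 reached 2-fold, and its largest was a log2 ratio of -0.53 (-0.67 to -0.39) from Icam1 to Adipoq cells of the Mgp-KO library.

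Ebf2 was highest in progenitors. Its Wild-type levels were 154 CPM (150 to 158), 101 (97.6 to 104) and 71.9 (64.5 to 79.9) in Pi16, Icam1 and Adipoq cells. Mgp-KO cells held 506 (498 to 514), 248 (239 to 257) and 236 (190 to 289). Pd-KO cells held 794 (785 to 802), 613 (584 to 644) and 338 (278 to 407). In each library the Pi16 level was above both later stages. The log2 ratio of Icam1 over Pi16 cells was -0.61, -1.03 (-1.09 to -0.97) and -0.37, and only the Mgp-KO one reached 2-fold.

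**Figure D2:**
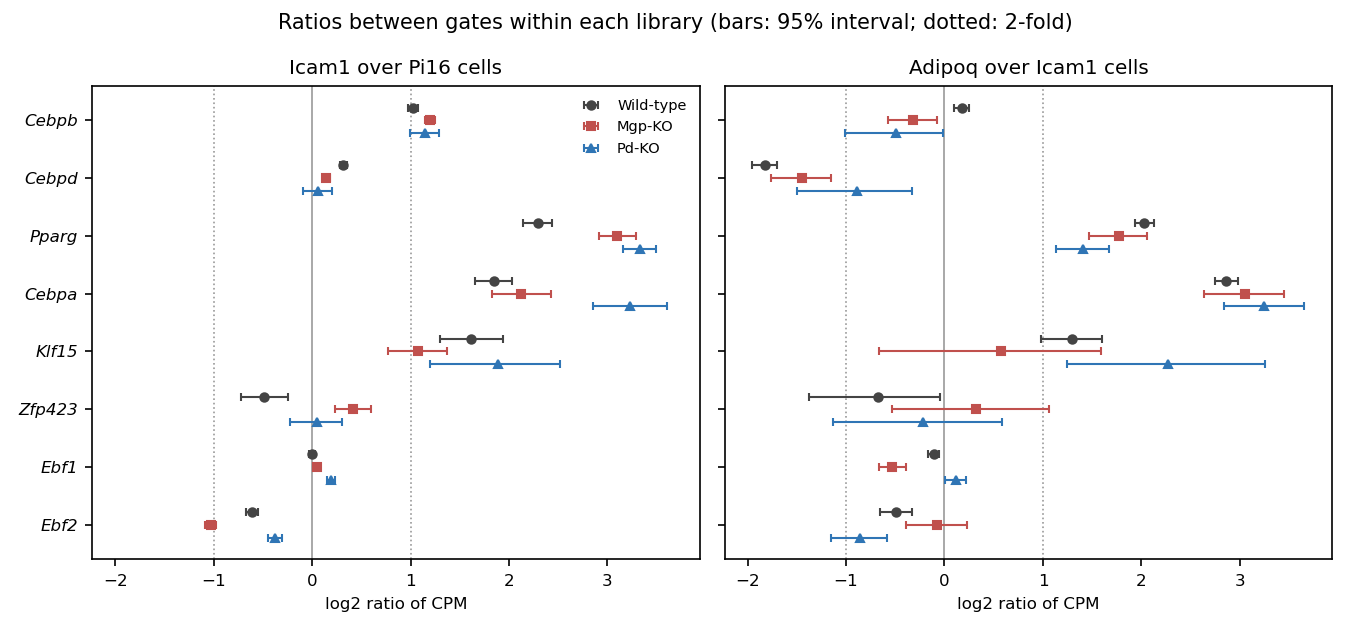
Log2 ratios of CPM for each gene, Icam1 over Pi16 cells and Adipoq over Icam1 cells, in the 3 libraries, with exact 95% intervals and dotted lines at 2-fold. Pparg and Cebpa lie to the right at both steps in each library, and Cebpd lies to the left only at the step into Adipoq cells.

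Over the first step, Pparg, Cebpa, Cebpb and Klf15, 4 of the 8 members, were higher by at least 2-fold in Icam1 cells of each library, where 9.64% of genes were in the Wild-type, 13.5% in the Mgp-KO and 15.8% in the Pd-KO library. No member was lower in the Wild-type library, beside 6.68% of genes, or in the Pd-KO library, beside 8.37%, and 1, Ebf2, was lower in the Mgp-KO library, beside 6.70%. The median log2 ratio of the members was 0.67, 0.75 and 0.67, and that of all genes 0.09, 0.09 and 0.18. Over the second step 3, 2 and 3 members were higher, with 10.3%, 14.3% and 11.7% of genes. Pparg and Cebpa were among them in each library and Klf15 in the Wild-type and Pd-KO libraries. Cebpd was the only member lower by at least 2-fold, in the Wild-type and Mgp-KO libraries, beside 23.9% and 23.7% of genes, and no member was lower in the Pd-KO library, where 18.1% of genes were. At this step the members' medians were 0.03, 0.15 and -0.03, and those of all genes -0.24, -0.18 and -0.06.

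Within Wild-type cells with a Pdgfra UMI and under 5 Pi16 UMIs, the Adipoq count itself was a finer scale. Pparg stood at 61.0 CPM (59.2 to 62.7) in 5137 cells with no Adipoq UMI, 66.0 (56.2 to 77.1) in 142 cells with 1, 197 (161 to 238) in 29 cells with 2 to 4 and 250 (230 to 271) in 67 cells with 5 or more. Cebpa stood at 29.0 (27.8 to 30.3), 31.6 (24.9 to 39.5), 139 (109 to 173) and 224 (205 to 244). Neither differed beyond its interval between cells with 0 and 1 Adipoq UMI, and both were higher from 2 UMIs on. Cebpd took the opposite order, at 353 (349 to 357), 296 (275 to 319), 230 (191 to 273) and 95.01 (82.8 to 109). Klf15 was higher only in the last group, at 27.5 (21.1 to 35.1) against 9.88 (9.19 to 10.6) in the first. Median depth rose over these Wild-type groups from 13963 to 35006 UMIs per cell. Cells with 1 Adipoq UMI had medians of 15753.5, 8323 and 8547.5 UMIs in the 3 libraries. Thus 1 UMI was not the same level in each. The knockouts did not follow the Wild-type order in Pparg. In the Mgp-KO library it stood at 63.8 (61.3 to 66.4) with no Adipoq UMI, 249 (185 to 327) in 22 cells with 1, 101 (32.7 to 235) in 6 cells with 2 to 4 and 279 (206 to 370) in 11 cells with 5 or more. In the Pd-KO library it stood at 148 (143 to 153), 424 (320 to 550) in 14 cells, 142 (81.0 to 230) in 10 cells and 443 (337 to 571) in 9 cells. In both knockouts Pparg was thus already higher at 1 Adipoq UMI than at 0. The Wild-type order of Cebpd was not kept either, at 589, 668, 805 and 338 CPM in the Mgp-KO and 130, 167, 159 and 105 in the Pd-KO library.

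The share of cells with a UMI was also taken after each cell had been thinned to 2000 UMIs, so that depth was equal. For Pparg it was 2.36% (exact binomial 95% interval 1.77 to 3.07) of Wild-type Pi16 cells, 10.1% (8.88 to 11.5) of Icam1 cells and 39.4% (31.2 to 48.1) of Adipoq cells, and 13.2%, 54.7% and 97.1% before thinning, at median depths of 14079, 16131 and 34609 UMIs. Wild-type epithelial cells had 0 of 236 thinned and 5.51% unthinned at a median of 19837 UMIs, where 0 of 236 cells allows up to 1.55%. In the Mgp-KO library 1.76% of epithelial cells, 9 of 510, had Pparg after thinning, so its progenitor share there was no higher than theirs. Their level of 13.9 CPM was above that of Pi16 cells. The thinned Pparg share was 1.49%, 14.0% and 34.6% in the Mgp-KO and 2.61%, 25.1% and 45.5% in the Pd-KO library. For Cebpa it was 2.09%, 5.02% and 35.0% in Wild-type Pi16, Icam1 and Adipoq cells, 0.742% and 3.46% in Mgp-KO Pi16 and Icam1 cells with 13 of 26 Adipoq cells, and 0.610% and 3.37% in Pd-KO cells with 11 of 22. Wild-type epithelial cells gave a Cebpa share of 2.12%, 5 of 236 cells, and endothelial cells 3.10%, so the Cebpa share of progenitors was no higher than theirs. Epithelial cells are no blank for Cebpa, since 21.6% of them had it before thinning, against 11.25% of Pi16 cells. The CPM of Cebpa in Pi16 cells of each library also lay below the level in free RNA, read from barcodes with only 10 to 100 UMIs. That level was 11.3, 13.9 and 14.4 CPM, and its Wild-type interval (6.02 to 19.3) held the Pi16 level. Pparg in Pi16 cells also lay below free RNA, which held it at 27.0, 72.1 and 277 CPM, in the Pd-KO library above Icam1 cells too. So did Klf15, at 19.1, 15.2 and 9.57 CPM in free RNA. Its free RNA level was also above Wild-type Icam1 cells and overlapped in its interval with the Icam1 cells of both knockouts. Cebpb in free RNA, at 252, 330 and 100 CPM, was also above the Pi16 cells of each library, and its libraries took the same order. The part of free RNA in the ratios between stages or libraries was not tested. Over the 8 members and 3 libraries the thinned share was higher in Icam1 than in Pi16 cells in 20 of 24 cases, and the unthinned share in 18. These counts take a difference of any size, and the like count over all genes was not made. Some differences lay within overlapping intervals, such as Ebf1 at 63.72% and 63.77% and Cebpd at 45.1% and 46.4% of Wild-type Pi16 and Icam1 cells.

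Outside the 3 stages, Pparg stood at 160 CPM in Wild-type, 374 in Mgp-KO and 436 in Pd-KO endothelial cells, above the Icam1 cells of the same library, and at 162, 90.7 and 526 in mural cells. Ebf1 was at 1040, 651 and 3434 CPM in mural cells and at 12.7, 33.1 and 148 in epithelial cells. Ebf2 was scarce in endothelial cells, at 12.5, 13.4 and 31.9 CPM. Cebpa ran from 9.54 to 11.1 CPM in endothelial and from 24.03 to 29.9 in mural cells. Klf15 reached 14.7, 27.8 and 10.5 CPM in Pdgfra cells with at least 5 Gdf10 UMIs, a regulatory type of progenitor known as Aregs, above the Icam1 cells of each library, although the intervals overlapped in the Pd-KO library. In cells with both at least 5 Pi16 and at least 2 Icam1 UMIs, Pparg lay between the stages, at 28.3, 36.5 and 65.5 CPM. The other cells with a Pdgfra UMI, in no named group, numbered 2599, 3949 and 2310. They held Pparg at 65.7, 57.9 and 153 CPM, Cebpa at 29.7, 15.1 and 23.3, Klf15 at 9.34, 14.8 and 8.40 and Cebpb at 249, 341 and 138. Each value lay above the Pi16 cells of its library, so levels above those of Pi16 cells were not particular to Icam1 cells.

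Likeness over 13 cell groups in 3 libraries, 39 points that share libraries and depth, was described by Pearson's r of log2(CPM + 10) among 13000 genes. The genes nearest to Pparg were Cd36 (r = 0.886), Cldn15 and Spry4, and those nearest to Cebpa were Agpat2 (0.891), Arxes1 and Cluh. Cd36 encodes a fatty acid transporter and Agpat2 an enzyme of triglyceride synthesis. Cebpb was nearest to Myc (0.826), Errfi1 and Myd88, and Cebpd to Ccn1 (0.879), Egr1 (0.870) and Mbd1. Klf15 was nearest to G0s2 (0.866), an inhibitor of lipolysis, Gnai1 and Slc36a2. Zfp423 was nearest to Ctif (0.895), Ldb2 and Fbxl7, Ebf1 to its relative Ebf3 (0.826), Ube2w and Golga3, and Ebf2 to Tbx15 (0.955), Ddr2 and Pde3a. Most genes of long genomic span stood higher in both knockout libraries than in the Wild-type library, as described below. The part of this shift in the likeness of Zfp423, Ebf1 and Ebf2 was not tested.

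Between genotypes, Ebf1, Ebf2 and Zfp423, the longest genes of the 8, were higher in both knockouts at each stage. In Pi16 cells the Mgp-KO to Wild-type log2 ratio was 1.51 for Ebf1, 1.72 for Ebf2 and 1.20 for Zfp423, and the Pd-KO to Wild-type ratio 1.82, 2.37 and 2.24. Among Icam1 cells the Mgp-KO ratios were 1.56, 1.30 and 2.10 and the Pd-KO ratios 2.02, 2.60 and 2.77. The same held for Adipoq cells, at 1.14, 1.71 and 3.09 (2.04 to 4.10) in the Mgp-KO and 2.24, 2.23 and 3.23 in the Pd-KO library. Pparg, next in length, did not go with them in the Mgp-KO library and had log2 ratios of -0.51, 0.30 and 0.04 in Mgp-KO Pi16, Icam1 and Adipoq cells and of 0.35, 1.39 (1.24 to 1.53) and 0.77 in Pd-KO cells.

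These differences moved with genomic span. On GRCm38 in GENCODE M21, Ebf1 covers 390.78 kb (chr11:44617317-45008091), Zfp423 297.79 kb (chr8:87661810-87959595), Ebf2 197.63 kb (chr14:67233292-67430918) and Pparg 129.45 kb (chr6:115360951-115490399), of which exons make up 1.88% to 3.51%. Klf15 covers 12.66 kb (chr6:90462576-90475238). Annotated exons together cover the whole span of the 3 C/EBP genes: Cebpd covers 3.75 kb (chr16:15887286-15891031), Cebpa 2.64 kb (chr7:35119293-35121928) and Cebpb 1.5 kb (chr2:167688915-167690418), Cebpb and Cebpd overlapping Tmem189 and Spidr on the other strand. Over all genes in Pi16 cells the median Mgp-KO to Wild-type log2 ratio was -0.22 for 702 genes whose exons cover their span, 0.07 for spans of 10 to 50 kb, 0.81 for 100 to 200 kb and 1.83 for 816 genes over 200 kb, 78.6% of which were higher by at least 2-fold. For Pd-KO the same medians were -0.30, 0.11, 1.07 and 2.10, with 82.9% of genes over 200 kb higher. In Icam1 and Adipoq cells 84.1% and 78.2% of the genes over 200 kb were higher in the Mgp-KO and 88.8% and 90.4% in the Pd-KO library. The count tables name Cell Ranger 4 for the Wild-type and 7.1.0 for both knockout libraries, and from version 7 on this software counts intronic reads by default. Software version and genotype cannot be told apart in these tables.

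**Figure D3:**
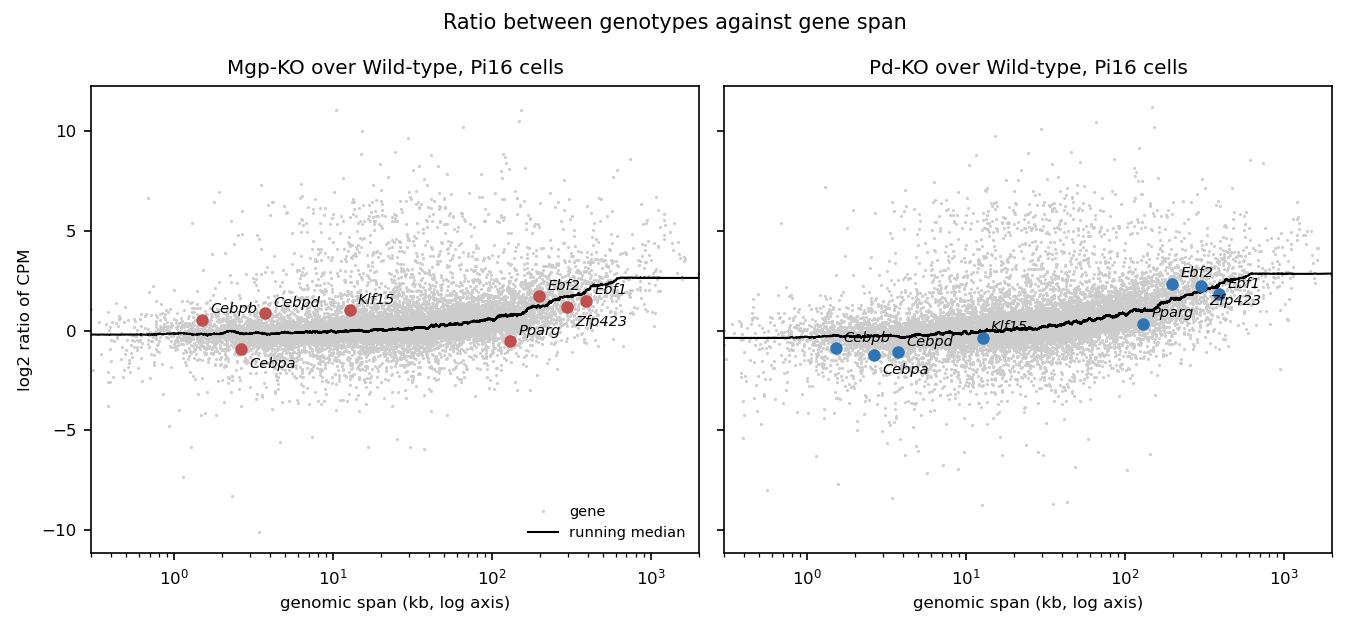
Log2 ratio of knockout over Wild-type in Pi16 cells against genomic span (log axis) for all genes compared, with the running median of the 200 genes of nearest span as a line and the 8 members as named points. Ebf1, Ebf2, Zfp423 and Pparg lie at long spans, where the running median itself is high, and the C/EBP genes at its short end.

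When the median of the 200 genes of nearest span was taken off, most differences of the long members shrank or turned. For Ebf1 it was then -0.50, -1.004 and -1.01 in Mgp-KO Pi16, Icam1 and Adipoq cells and -0.55, -0.74 and -0.62 in Pd-KO cells, so its sign was reversed throughout. Before this step, however, the Ebf1 ratio lay within the quartiles of genes over 200 kb at every stage of both knockouts. In Pi16 cells those quartiles were 1.11 and 2.74 for Mgp-KO and 1.35 and 3.05 for Pd-KO. The reversed values of Ebf1 thus lay within the spread of long genes. Zfp423 stood at -0.51, -0.02 and 1.33 in Mgp-KO and at 0.31, 0.36 and 0.85 in Pd-KO cells. Ebf2 stood at 0.50, -0.21 and 0.60 and at 0.75, 0.85 and 0.40. Pparg stood at -1.29, -0.70 and -0.73 in Mgp-KO cells, below genes of like span at every stage, and at -0.67, 0.11 and -0.47 in Pd-KO cells. The ordering of Ebf1, Ebf2 and Zfp423 between Wild-type and knockouts thus depended on how span was treated. Ratios between stages compare cells of 1 library, and no span correction was applied to them.

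**Figure D4:**
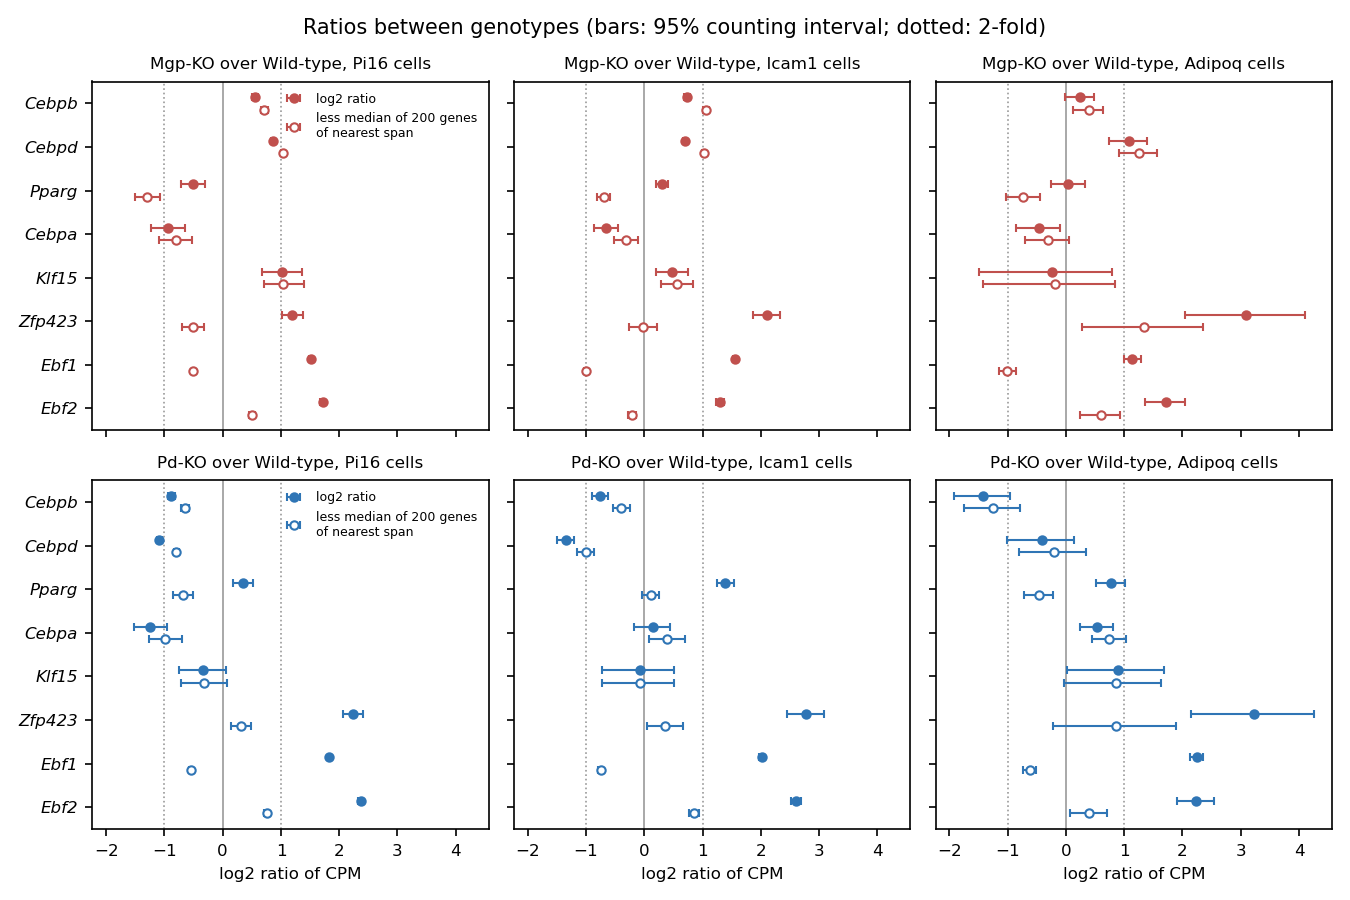
Log2 ratio of each knockout over Wild-type for the 8 genes in Pi16, Icam1 and Adipoq cells, as counted and after the running median over genomic span was taken off, with exact 95% intervals of counting error. Ebf1 changes side in all 6 comparisons, while Cebpb and Cebpd keep theirs, above 0 in Mgp-KO and below 0 in Pd-KO cells.

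Cebpb and Cebpd, whose exons cover their span, lay on opposite sides of Wild-type in the knockouts, although the intervals of Cebpb in Mgp-KO and of Cebpd in Pd-KO Adipoq cells spanned 0. The Mgp-KO to Wild-type log2 ratio was 0.56 (0.50 to 0.61) for Cebpb and 0.87 (0.84 to 0.91) for Cebpd in Pi16 cells, 0.73 and 0.70 in Icam1 cells and 0.24 (-0.02 to 0.49) and 1.07 (0.74 to 1.40) in Adipoq cells, the last being 0.53 without the 5% of cells with most UMIs. The Pd-KO to Wild-type ratio was -0.88 (-0.94 to -0.81) and -1.09 (-1.13 to -1.04) in Pi16 cells, -0.75 and -1.35 (-1.49 to -1.21) in Icam1 cells and -1.42 (-1.93 to -0.96) and -0.41 (-1.01 to 0.14) in Adipoq cells. With the span median taken off, the Cebpd ratios were 1.04, 1.03 and 1.25 in the Mgp-KO library and -0.79 and -1.01 in Pd-KO Pi16 and Icam1 cells. Genes whose exons cover their span had a median of -0.22 in Mgp-KO and -0.30 in Pd-KO Pi16 cells, with quartiles of -0.64 and 0.08 and of -0.84 and 0.10, and 20.1% of them were lower by at least 2-fold in Pd-KO cells. Outside the stages, the Cebpd log2 ratio was -1.36 in Pd-KO endothelial, -1.40 in mural and -1.11 in epithelial cells, while the Cebpb ratio was -0.88, -0.62 and 0.30 (0.05 to 0.54), above 0 in epithelial cells. In Mgp-KO cells Cebpd stood at 0.06 (-0.27 to 0.37) in endothelial, 0.98 in mural and 1.34 in epithelial cells, and Cebpb at 0.43 (-0.02 to 0.85), 1.48 and 0.93. Free RNA of the 3 libraries held Cebpd at 821, 505 and 87.6 CPM and Cebpb at 252, 330 and 100. Its part in these ratios was not tested.

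Cebpa differed most in progenitors, where its log2 ratio was -0.94 in the Mgp-KO and -1.24 (-1.53 to -0.96) in the Pd-KO library. Both values rest on levels below those of free RNA, although the interval of Wild-type free RNA (6.02 to 19.3 CPM) held the Wild-type Pi16 level. In Icam1 cells the ratios were -0.66 and 0.15, and in Adipoq cells -0.47 and 0.53. Klf15 had a log2 ratio of 1.02 (0.68 to 1.37) in Mgp-KO progenitors and of -0.35 in Pd-KO progenitors. Its Pd-KO level differed between the sexes, at 0.921 CPM (0.476 to 1.61) in 1160 cells called female and 3.99 (3.16 to 4.97) in 1800 cells called male.

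Of the 8 members, 4, 3 and 4 were higher by at least 2-fold in Mgp-KO than in Wild-type Pi16, Icam1 and Adipoq cells, where 16.6%, 19.6% and 17.2% of all genes were, and none was lower, beside 5.04%, 5.13% and 8.94% of genes. In the Pd-KO library 3, 4 and 3 were higher, beside 20.6%, 22.8% and 26.1% of genes, and 2, 1 and 1 were lower, beside 6.93%, 6.17% and 7.06%. The medians of all genes were 0.12, 0.13 and 0.14 for Mgp-KO and 0.16, 0.27 and 0.36 for Pd-KO. With the span median taken off, 3, 3 and 3 members passed 2-fold in either direction in the Mgp-KO library, where 16.7%, 18.2% and 21.1% of genes did, and 0, 1 and 1 in the Pd-KO library, where 20.6%, 18.8% and 23.3% did. Those were Cebpd and Klf15 higher and Pparg lower in Mgp-KO Pi16 cells, Cebpb and Cebpd higher and Ebf1 lower in Mgp-KO Icam1 cells, and Cebpd and Zfp423 higher and Ebf1 lower in Mgp-KO Adipoq cells. In the Pd-KO library they were Cebpd, lower in Icam1 cells, and Cebpb, lower in Adipoq cells.

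Immediate early and heat shock genes, which respond within minutes to handling or growth signals, were ordered by library like Cebpb and Cebpd as a sum, though not each of them. Their 15 genes summed to 5170 CPM in Wild-type, 8393 in Mgp-KO and 2841 in Pd-KO Pi16 cells, to 15750, 22940 and 10130 in Icam1 cells and to 8679, 14120 and 5533 in Adipoq cells. At each stage the order of the libraries was that of Cebpb and Cebpd. In Icam1 over Pi16 cells 13 of 15, 11 of 15 and 11 of 14 measured genes of the list were higher by at least 2-fold and none lower. Among all genes 9.64%, 13.5% and 15.8% were higher. The list medians were 1.51, 1.31 and 1.84, with Fosb at 2.05, 2.08 and 2.38. Cebpd was not higher by 2-fold at this step in any library. In Pd-KO over Wild-type Pi16 cells 9 of 15 were lower, beside 6.93% of all genes, and 0 higher (median -1.25). Hspa1b was at -3.24, Hspa1a at -3.11, Ier3 at -1.77 and Nr4a1 at -1.65. In Mgp-KO Pi16 cells 4 of 15 were higher, beside 16.6% of all genes, Fos at 1.27 and Atf3 at 1.18 among them. There 1, Hspa1b at -1.45, was lower, beside 5.04% of all genes (median 0.54). Hspa1b was thus below Wild-type in Pi16 cells of both knockouts, unlike Cebpb and Cebpd.

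The 10 glucocorticoid-responsive genes summed to 1550, 2168 and 755 CPM in Pi16 cells. In Pd-KO Pi16 cells 5 of 10 were lower by at least 2-fold, beside 6.93% of all genes, and none was higher (median -1.15), Lcn2 at -4.28 and Dusp1 at -1.65. In Mgp-KO Pi16 cells 2 were higher, a share near the 16.6% of all genes, and none lower (median 0.37), among them Fkbp5, which encodes a chaperone of the glucocorticoid receptor, at 1.30. Among cells with under 5 Fos UMIs per 10000, the Mgp-KO to Wild-type log2 ratio in Pi16 cells was 0.29 (0.18 to 0.40) for Cebpb and 0.51 (0.44 to 0.57) for Cebpd, and the Pd-KO to Wild-type ratio -0.72 (-0.81 to -0.63) and -1.13 (-1.19 to -1.08). Directions were those of all cells, with smaller Mgp-KO ratios. The part of cell handling in these ratios was not tested.

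**Figure D5:**
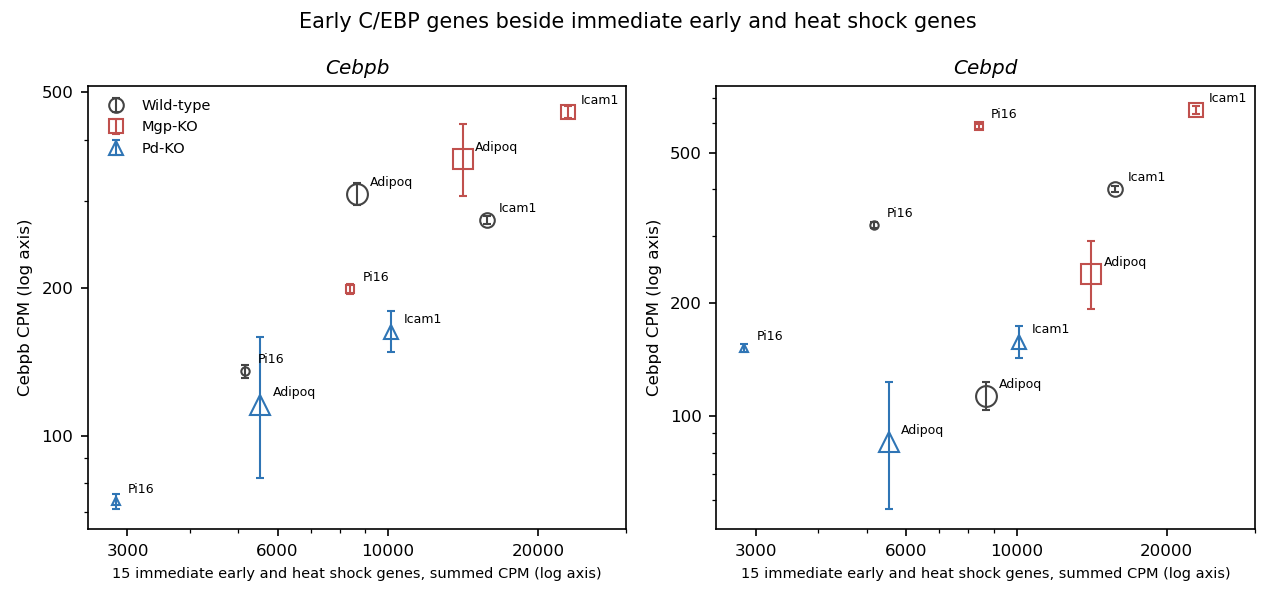
Level of Cebpb and of Cebpd against the summed level of 15 immediate early and heat shock genes, both in CPM on log axes, for the cell groups of the 3 libraries. Pi16 cells lie at summed levels of 5170 (Wild-type), 8393 (Mgp-KO) and 2841 CPM (Pd-KO), in the same order as their Cebpb and Cebpd.

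Target genes of Pparg and Cebpa followed them along the stages. From Pi16 to Icam1 cells 11 of 22, 11 of 21 and 12 of 20 measured adipocyte target genes were higher by at least 2-fold. In each library 1 was lower, and the medians were 1.02, 1.32 and 1.24. Among all genes 9.64%, 13.5% and 15.8% were higher and 6.68%, 6.70% and 8.37% lower. Car3 had log2 ratios of 3.21, 5.00 and 4.98 at this step, Plin4, a coat protein of lipid droplets, of 2.95, 4.29 and 4.83, and Cd36 of 2.60, 4.05 and 2.98. From Icam1 to Adipoq cells 19 of 24, 22 of 24 and 16 of 20 were higher, beside 10.3%, 14.3% and 11.7% of all genes, and none was lower. The medians were 3.60, 4.45 and 3.35. Adipoq itself defined the last group, so its ratio is not a result, although these counts and medians include it. In Pi16 cells 10 of 23 target genes were lower in the Mgp-KO than in the Wild-type library, beside 5.04% of all genes, and 1 was higher. In the Pd-KO library 7 of 22 were lower, beside 6.93% of all genes, and none was higher. The medians were -0.50 and -0.66, with Car3 at -3.16 and -2.76 and Plin1 at -2.73 and -2.72. In Icam1 cells 5 of 22 were lower in the Mgp-KO library, beside 5.13% of all genes. In the Pd-KO library 1 of 22 was lower there, no more than the 6.17% of all genes, and none was higher in either library. Adipoq cells did not show this drop. There 5 of 24 were higher in the Mgp-KO library, near the 17.2% of all genes, and none was lower, beside 8.94% (median 0.31). Cfd was at 5.01 and Cidec at 2.10. In the Pd-KO library 2 of 24 were higher, beside 26.1% of all genes, and 2 lower, near the 7.06% (median 0.02), Pck1 at -4.44. Summed adipocyte markers in Pi16 cells stood at 52.3, 10.6 and 12.3 CPM, and the part of free RNA or doublets in them was not tested.

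Among adipogenic cofactors and activators, 5 of 20, 8 of 20 and 7 of 19 measured genes were higher and none lower from Pi16 to Icam1 cells. Among all genes 9.64%, 13.5% and 15.8% were higher at this step and 6.68%, 6.70% and 8.37% lower. Egr2 had log2 ratios of 2.09, 3.03 and 3.36 and the coactivator Ppargc1b of 1.72, 2.17 and 2.07. From Icam1 to Adipoq cells 4 of 20, 5 of 20 and 3 of 18 were higher, beside 10.3%, 14.3% and 11.7% of all genes, and 5, 4 and 2 lower, near or below the 23.9%, 23.7% and 18.1% of all genes, Ppargc1b at 3.31 in the Wild-type and 4.10 in the Mgp-KO library. Klf9 was lower at this step in each library, at -1.97, -1.26 and -1.61. Regulators known to hold back adipogenesis were split by step. From Pi16 to Icam1 cells 6 of 18, 6 of 17 and 8 of 17 measured genes were higher, above the shares of all genes. In each library 1 was lower, near or below the share of all genes. Runx2 was at 2.01, 2.29 and 2.88 and Dlk1 at 1.92, 1.65 and 3.04. From Icam1 to Adipoq cells none was higher, and 10 of 18, 10 of 17 and 4 of 16 were lower. The Wild-type and Mgp-KO counts were above the 23.9% and 23.7% of all genes, and the Pd-KO count lay near its 18.1%. Snai2 was at -2.03, -2.19 and -1.16. Medians of these lists at the step into Icam1 cells were 0.31, 0.66 and 0.52 for the cofactors and 0.43, 0.68 and 0.85 for the inhibitory regulators.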

How the data were processed

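Single-cell 3′ RNA libraries (10x Genomics) of inguinal stromal vascular cells were analysed, 1 library per genotype. The deposited files hold UMI counts per gene and barcode, not normalised and with empty barcodes kept, which the authors made with Cell Ranger. The matrix headers name version 4 (Wild-type) and 7.1.0 (both knockouts), the submitters' processing notes name 6.1.1 and GRCm39, and the methods name mm10, the same genome as GRCm38. The total was 184102026 UMIs in the Wild-type, 93212243 in the Mgp-KO and 83942865 in the Pd-KO library.

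The members and gene lists were chosen with earlier results of these data known. UMIs were summed over the cells of each group and compared as log2 ratios of CPM, with 0.5 UMIs added for counts over all genes. Intervals are exact, Poisson for levels, conditional binomial for ratios and Clopper-Pearson for shares, at 95%. No p-value was computed. In thinned shares every cell was drawn down to 2000 UMIs without replacement. Gene spans came from GENCODE M21 by gene identifier and promoters from RefSeq. Every member is described. Of each list, up to 4 genes of at least 50 UMIs with the largest log2 ratios were eligible to be named, and for likeness the 3 genes with the highest correlation. The ratio code was tested on simulated counts. Python 3.11.15, numpy 2.4.6, scipy 1.17.1 and pandas 2.3.3 were used. Alternatives were other UMI limits, gates per 10000 UMIs, no Pdgfra condition, removal of cells with other lineage markers or of the 5% deepest, equal weight per cell, median-ratio scaling, span correction and each sex alone. Scaling to genes whose exons cover their span and the restriction to cells low in Fos were chosen after seeing the data.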

Additional observations from a re-analysis of the deposited data

Results flagged for a closer look

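Some members moved in opposite directions in different libraries, the counting interval of each ratio excluding 0 except where an interval spanning 0 is given. With 1 library per genotype these differences were not tested. From Pi16 to Icam1 cells, the Zfp423 log2 ratio was -0.49 in the Wild-type, 0.42 in the Mgp-KO and 0.046 (-0.22 to 0.30) in the Pd-KO library. From Icam1 to Adipoq cells, Cebpb was at 0.175, -0.32 and -0.49, and Ebf1 at -0.11, -0.53 and 0.12, in the same order of libraries. Some of these signs changed under alternatives. Cebpb was at -0.096 in the Wild-type library without the 5% of cells with most UMIs and at 0.161 in Mgp-KO cells called female. Ebf1 was at 0.03 in the Wild-type library with median-ratio scaling and at -0.03 in Pd-KO cells called female.

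Both knockouts were compared with the same Wild-type library, and 6 pairs of ratios lay on opposite sides of 0 with neither interval spanning it. In Pi16 cells, Mgp-KO and Pd-KO had log2 ratios to Wild-type of -0.51 and 0.35 for Pparg, both below 0 (-1.29 and -0.67) once the span median was taken off, 0.56 and -0.88 for Cebpb, and 0.87 and -1.09 for Cebpd. In Icam1 cells, they were 0.73 and -0.75 for Cebpb and 0.70 and -1.35 for Cebpd. In Adipoq cells, Cebpa was at -0.47 and 0.53, from 26 and 22 knockout cells. The summed level of the 15 immediate early and heat shock genes moved in the directions of Cebpb and Cebpd, and its part in them was not tested.

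Outside the cells, Wild-type barcodes of 10 to 100 UMIs held Cebpd at 821 CPM (770 to 876), above the 321 CPM of Pi16 and the 401 CPM of Icam1 cells of that library. In the same kind of barcode Cebpd stood at 505 CPM in the Mgp-KO and 87.6 CPM in the Pd-KO library, below the Pi16 cells of each.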

How the results depend on the processing

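No paired analysis was possible because each genotype had 1 library. Of 48 member ratios between genotypes 25 passed 2-fold, 21 higher and 4 lower, and of 48 between stages 23 did, 20 higher and 3 lower. Of 67 such counts under alternatives, 59 stayed within 1.5 times. The lower genotype calls numbered 7 with median-ratio scaling, 8 in cells called female, 2 in cells called male and 2 with scaling to genes whose exons cover their span. With the running median over genomic span taken off, 11 genotype ratios passed, 6 of them higher, and 5 of the 25 were kept. The signs then reversed for Zfp423 (-0.51) and Ebf1 (-0.50) in Mgp-KO Pi16 cells, for Zfp423 (-0.024), Ebf1 (-1.004) and Ebf2 (-0.21) in Mgp-KO Icam1 cells and for Ebf1 in Mgp-KO Adipoq cells (-1.01) and in Pd-KO Pi16 (-0.55), Icam1 (-0.74) and Adipoq cells (-0.62). This alternative takes off, by construction, a median that rises with span, and the cause of the reversals was not tested. Lower stage calls numbered 5 without cells carrying other lineage markers and 5 in cells called female, and the cause was not tested. The Pd-KO drop of Cebpa in Pi16 cells was -0.88 in cells called male, and that of Cebpd -0.78 with scaling to genes whose exons cover their span. Klf15 in Mgp-KO Pi16 cells ran from 0.79 to 1.24 over 12 alternatives. Restricted to cells low in Fos, the Wild-type Icam1 to Pi16 ratio of Cebpd turned from 0.32 to -0.15. Depth limits Klf15 and Zfp423 in Adipoq cells, with 8 to 118 and 14 to 22 UMIs, and the sex subsets, whose smallest groups held 8 and 10 cells.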

Other observations

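Cycling cells had at least 2 Mki67 UMIs and 1 Pdgfra UMI and were taken only from cells that passed none of the Pi16, Icam1 and Adipoq limits. Dividing cells within the stages were thus left out. Those taken numbered 113, 47 and 39 in the Wild-type, the Mgp-KO and the Pd-KO library. Their Cebpd stood at 130 CPM (116 to 144), 179 (147 to 214) and 68.6 (47.2 to 96.3), below the Pi16 and Icam1 cells of each library. Pparg in the same cells was at 42.4 (34.8 to 51.1), 56.9 (40.1 to 78.5) and 116 (87.9 to 151) CPM, above the Pi16 cells of each library. Cycling Wild-type cells held Ebf2 at 55.9 CPM (47.2 to 65.9), below the Pi16 and Icam1 cells of that library. Summed epithelial markers stood at 1347, 254 and 538 CPM in cycling cells, against 97.4, 62.4 and 11.1 in Pi16 cells. The part of cell mixture in the cycling values was not tested.

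In mural cells Ebf1 was lower in the Mgp-KO than in the Wild-type library, at 651 CPM (605 to 700) against 1040 (1014 to 1067), before any correction for span. Mural Ebf2 did not differ beyond its intervals, at 80.1 (64.5 to 98.3) against 82.9 (75.7 to 90.6). With the running median over span taken off, the mural log2 ratio of Ebf1 was -2.46. The cells gated as mural were not alike in markers. Summed mural markers stood at 4493 CPM in the Wild-type and 2644 in the Mgp-KO library, and summed epithelial markers at 280 and 583. The part of cell mixture in the mural values of the Mgp-KO library was not tested.

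The sexes differed in Cebpd within knockout Pi16 cells. In Mgp-KO cells called female it stood at 619 CPM (607 to 631) and in those called male at 480 (465 to 496). In the Pd-KO library it was lower in cells called female, at 119 (113 to 125), than in those called male, at 170.5 (165 to 176). In the Wild-type library the values were 337 (324 to 350) and 320 (311 to 329). Which mouse each cell came from was not known here, so sex and mouse cannot be told apart.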
